A study of Mus musculus with 6 samples.

Results

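Broad domains are here the stretches of chromatin where peaks, pooled over libraries and joined where they overlap, span 4000 bp or more. They were taken from CUT&Tag peak lists of group 2 innate lymphoid cells (ILC2s), sorted from mouse colon and grown in culture. In CUT&Tag an antibody brings a transposase to chromatin, and the DNA cut near the antibody's target is sequenced. No source used here names the target, so a domain is a stretch enriched for an unnamed target. Peaks with an adjusted p under 0.05 in their own library were pooled over all 6 libraries, overlapping peaks were merged into union regions, and regions of 4000 bp or wider with such a peak in at least 2 libraries were kept. Domains were thus chosen by the pooled width of peaks over all groups, and the width itself is a description and not a finding. A region can reach 4000 bp through the peaks of a single group, and only 2 of the 6 libraries held succinate. Differences in covered length between groups are therefore not independent of the choice of domains. The rule gave 98 domains among 29342 union regions with a peak in at least 2 libraries, or 0.334% of them, and 1.04% of their summed width.

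The cells were FK866 plus succinate-treated (2 libraries), FK866-treated (2 libraries) or left as Control (2 libraries). FK866 blocks NAMPT, the enzyme that recycles nicotinamide into NAD, and succinate is a metabolite of the tricarboxylic acid (TCA) cycle. All 3 groups were grown with IL-33 and IL-25, which activate ILC2s, and with IL-7 and IL-2, which sustain them, so the Control cells were also stimulated. The sources used here give no dose, treatment time, strain or age. Whether the paired libraries came from different animals or cultures is not stated, so every p measures only the spread between these libraries.

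ILC2s are tissue lymphocytes without antigen receptors that answer the alarm cytokines IL-33 and IL-25 with type 2 cytokines such as IL-13. In many cell types the histone marks of active promoters and enhancers form most of their peaks as short stretches and a few as long ones, and the long ones are known to gather at genes that define the cell's identity. Which mark or protein these libraries report is not known, so that background does not name the domains described here.

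The promoters of 5 domain genes are printed here because the results return to them: Mllt6 lies under the widest domain, Il1rl1, Il13 and Akna have domains whose covered length is compared between the groups below, and Cish carries a paired STAT motif. Each is the RefSeq window of GRCm38.p6, 250 bases before to 50 after a listed transcript start, read 5′ to 3′ on the gene's strand. Such a start is called a gene start here, also where it lies inside the gene. The windows are chr11:97663162-97663461 (+ strand) for Mllt6, chr1:40429320-40429619 (+ strand) for Il1rl1, chr11:53634653-53634952 (- strand) for Il13, chr4:63402554-63402853 (- strand) for Akna and chr9:107296409-107296708 (+ strand) for Cish. Capitals mark CG dinucleotides in the first 4 sequences and the motif TTCNNNGAA, the letters of a STAT site, in the last.
Mllt6: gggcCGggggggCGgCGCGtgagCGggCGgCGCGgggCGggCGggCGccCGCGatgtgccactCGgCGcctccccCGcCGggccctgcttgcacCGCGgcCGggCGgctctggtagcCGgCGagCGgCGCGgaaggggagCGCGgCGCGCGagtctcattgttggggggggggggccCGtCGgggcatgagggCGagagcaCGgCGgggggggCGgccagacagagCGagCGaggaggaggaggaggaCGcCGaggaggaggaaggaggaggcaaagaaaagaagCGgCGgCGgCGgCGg
Il1rl1: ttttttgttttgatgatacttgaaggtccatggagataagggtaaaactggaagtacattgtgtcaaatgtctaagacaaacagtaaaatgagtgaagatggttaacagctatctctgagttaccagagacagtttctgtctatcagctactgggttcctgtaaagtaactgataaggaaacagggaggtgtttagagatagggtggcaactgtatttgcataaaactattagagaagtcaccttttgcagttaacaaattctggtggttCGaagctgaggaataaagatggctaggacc
Il13: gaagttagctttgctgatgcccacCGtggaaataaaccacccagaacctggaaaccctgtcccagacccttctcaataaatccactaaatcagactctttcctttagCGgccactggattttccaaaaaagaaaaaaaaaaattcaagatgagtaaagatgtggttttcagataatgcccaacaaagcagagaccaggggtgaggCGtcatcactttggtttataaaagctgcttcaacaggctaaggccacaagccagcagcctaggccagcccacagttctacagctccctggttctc
Akna: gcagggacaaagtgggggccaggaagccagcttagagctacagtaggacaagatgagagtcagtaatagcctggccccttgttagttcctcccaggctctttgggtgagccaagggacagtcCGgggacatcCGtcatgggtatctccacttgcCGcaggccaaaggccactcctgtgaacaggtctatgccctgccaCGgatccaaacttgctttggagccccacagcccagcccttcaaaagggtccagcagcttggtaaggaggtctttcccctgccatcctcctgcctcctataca
Cish: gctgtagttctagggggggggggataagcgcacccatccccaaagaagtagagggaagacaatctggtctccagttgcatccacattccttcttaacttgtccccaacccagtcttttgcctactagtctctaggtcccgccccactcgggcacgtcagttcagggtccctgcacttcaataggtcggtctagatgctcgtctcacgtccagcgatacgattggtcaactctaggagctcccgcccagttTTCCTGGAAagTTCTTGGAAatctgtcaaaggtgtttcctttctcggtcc
The Mllt6 window holds 46 CG dinucleotides, whereas the Il1rl1 window holds 1, the Il13 window 3 and the Akna window 4. The Cish window holds 2 copies of TTCNNNGAA close to its gene start.

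Between 25187 and 28269 peaks per library passed the threshold, and together they covered between 30.5 and 33.7 Mb. Depth is not given as reads. The steps between the commonest fold values give a relative depth, the inferred background in fragments per position, which was 1.74 and 1.25 with FK866 plus succinate, 2.11 and 1.6 with FK866 alone, and 1.85 and 2.14 in Control. By this inferred depth the shallowest library was FK866 plus succinate 2, where 11 of the 12 commonest fold values fitted the step. Between 27.8% and 44.0% of the peaks of a library lay on its inferred step. All 11 ILC2 markers looked up had a union region, among them Gata3, Rora, Il1rl1, Il7r, Il5 and Il13, and 2 of them, Il1rl1 and Il13, had a domain. The ILC2 marker Ptgdr2 had a peak only in the FK866 libraries, over 386 and 529 bp, and none in Control or FK866 plus succinate. Of the marker lists of other cells, Cd8a and Cd8b1 (T cells), Il17a and Il22 (ILC3s), Ifng and Klrb1c (ILC1 and NK cells), Csf1r (myeloid cells) and Muc2 (epithelium) had no peak in any library. Regions did lie at 9 of 12 T cell markers, at 5 of 10 ILC3, 5 of 10 ILC1 and NK, 5 of 8 B cell, 5 of 10 myeloid and 6 of 9 epithelial markers, and no gene of these lists had a domain.

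The domains were 4003 to 6287 bp wide with a median of 4369.5 bp, against a median of 1371 bp over all 29342 tested regions. Only 12 domains were 5000 bp or wider, and 172 further regions measured 3500 bp or more without reaching the limit, so the width limit cuts a continuous tail. Just inside the limit lay Junb (4003 bp), Fem1c (4006 bp) and Il13 (4009 bp). Just outside lay a region of 3996 bp with no gene name at chr6:31123120-31127115, St8sia4 (3987 bp) and Ing1 (3982 bp).

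All 98 domains held a peak in all 6 libraries, against 63.3% of the tested regions, 96.0% of those of 2000 bp up to 3000 bp and 99.7% of those of 3000 bp up to the domain limit. Bases covered in every library summed to 348.738 kb, or 79.4% of the 439.266 kb of domain, and bases covered in 1 library alone made up 3.85%. In 34 domains each of the 6 libraries had a single peak. One unbroken peak of 4000 bp or wider was present in at least 1 library for 81 domains and in all 6 libraries for 19. The other 17 domains reached the limit only by joining shorter peaks, and the widest of all, Mllt6, was one of them.

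Bbc3 (4780 bp), which encodes the BH3-only death protein PUMA, was the most evenly covered domain, with 98.97% of its bases under a peak in every library. Gfi1 (4293 bp), a transcriptional repressor needed by ILC2s, followed with 98.4%. At the other end, the region at chr11:106943785-106947920 had no base covered in all 6 libraries, Coro2a had 18.0%, Sik3 25.7%, Sp9 25.8% and the region at chr15:74930492-74934854 36.9%. Bbc3 and Gfi1 were named with these values known.

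Neither the fold enrichment nor the p rank of the strongest peak rose steadily with width. The fold is a ratio to local background and not a height. The strongest peak of a domain had a median fold enrichment over local background of 3.51, in the deposited values averaged over libraries, against 4.93 in regions of 3000 bp up to the domain limit, 6.57 in those of 2000 bp up to that width, 6.76 in those of 1000 bp up to 2000 bp and 3.37 in narrower ones. Ranked by -log10 p among all deposited peaks of its own library, the strongest peak of a domain stood at a median percentile of 78.7. The same 4 classes stood at 81.6, 83.8, 73.1 and 52.0, and no domain averaged above 87.4. This ranking included peaks that did not pass the threshold, so a percentile among the passing peaks would be lower. Of 40371 deposited peaks in FK866 1, 28252 passed, and of 56416 in FK866 plus succinate 2, 26853 passed. The domains ranked strongest by that measure were Rassf1/Zmynd10, Mllt3, Wnk1, Anp32a/Gm20346 and Kat2b, and Mllt3 had the highest mean fold of all domains, 5.42. Mllt3 encodes the chromatin reader AF9, which like Mllt6 is known as a fusion partner of KMT2A in leukaemia.

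The domains lay on 20 chromosomes, with 12 on chromosome 11 and 10 on chromosome 9. In 80 domains an end of a protein-coding gene, or a listed transcript start of one, lay inside. At Il1rl1, Bbc3 and Bcl2l1 it was a transcript start alone, with neither end of the gene inside. A further 13 domains lay within a gene and 5 touched no protein-coding gene. Of these 5, the domain at chr19:5798745-5802837 overlaps Malat1 and the one at chr19:5842270-5846365 overlaps Neat1, both long non-coding RNAs of the nucleus, and the pair lies 39432 bp apart. The domain at chr17:39844072-39848748 overlaps an 18S ribosomal RNA pseudogene, Rn18s-rs5, and the non-coding AY036118, so near-identical copies could have shared its reads. The domain on chromosome 15 overlaps the non-coding Gm39556, and the one at chr11:106943785-106947920 overlaps no annotated gene. In all 107 protein-coding genes overlapped a domain, which is 0.743% of the 14407 protein-coding genes with a tested region.

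A gene start listed in the RefSeq promoter table fell inside 71 domains, and 8 of these held starts of 2 or 3 genes. The domains were lopsided around the start: they reached a median of 1280 bp upstream and 3042 bp downstream, and 56 of the 71 extended further into the gene than away from it. Leaving out the 6 domains with starts on both strands, 54 of 65 did so. The summit of the strongest peak lay a median of 145.5 bp downstream of the start, where with several starts the one nearest the summit was taken. The genes had a median length of 19.226 kb, which was not set beside that of other genes. In all 10 domains were wider than their gene, among them Junb, Gadd45b, Dusp6, Actg1 and Il13. The Il13 domain runs from 259 bp before the start to 3749 bp after it, past the end of a gene of 3380 bp.

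At the gene start itself 100% and 94.4% of the 71 domains were covered in the FK866 plus succinate libraries, against 97.2% and 97.2% with FK866 alone and 93.0% and 97.2% in Control. At 2000 bp into the gene the shares were 67.6% and 71.8% in FK866 plus succinate, 78.9% and 76.1% in FK866, and 77.5% and 83.1% in Control. At 1000 bp upstream they were 57.7% and 59.2% in FK866 plus succinate, 59.2% and 62.0% in FK866, and 60.6% and 60.6% in Control. The FK866 plus succinate libraries thus lay below the other 4 at 2000 bp into the gene. At 1000 bp upstream one of them was level with a FK866 library. This order depended on the position chosen. At 2400 bp into the gene FK866 plus succinate 2, at 67.6%, was level with both Control libraries and above both FK866 libraries. At 1700 bp upstream both FK866 plus succinate libraries, at 32.4% and 33.8%, lay below the other 4.

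**Figure D1:**
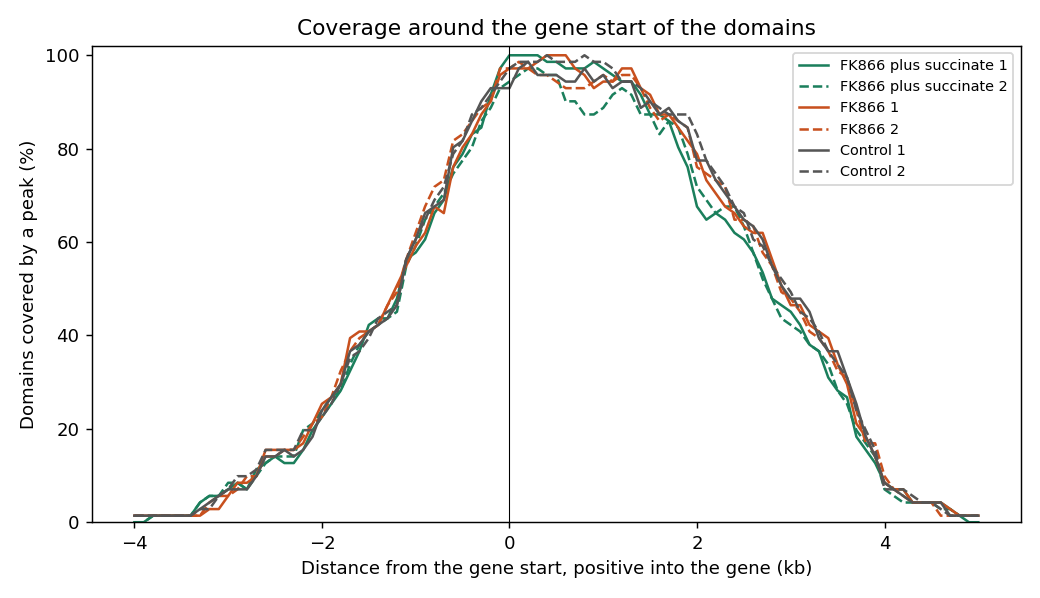
Share of the 71 domains with a gene start that were covered by a peak (y axis, %) against the distance from the start in kb, positive into the gene (x axis). Each line is 1 library, solid for replicate 1 and dashed for replicate 2. Coverage falls off faster upstream than downstream in all 6 libraries, and at 2 kb into the gene the 2 FK866 plus succinate lines are lowest, at 67.6% and 71.8%.

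The genes under domains are described here by role, with the covered length, the number of bases of the domain under a peak, in each library. Among cytokine and cytokine-response genes, Cish, an inhibitor of STAT5 signalling that cytokines induce, had the fourth widest domain (5754 bp, chr9:107295628-107301381). It was covered over 5565 and 5127 bp in FK866 plus succinate, 5445 and 4890 bp in FK866, and 5040 and 5532 bp in Control, so all 3 groups overlapped. Pim1, a survival kinase that STAT factors induce, was covered over 4836 and 4781 bp in FK866 plus succinate, 4842 and 4928 bp in FK866, and 4989 and 5060 bp in Control. At Pim1 the groups did not overlap, with the lowest values in FK866 plus succinate and the highest in Control, though the whole spread was small beside the domain's 5062 bp.

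The ILC2 receptor list gave domains at Il1rl1 and Il4ra. Il1rl1 encodes ST2, the receptor for IL-33, and its domain (4121 bp, chr1:40429101-40433221) was covered over 3546 and 3578 bp in FK866 plus succinate, 4014 and 4073 bp in FK866, and 3972 and 3959 bp in Control. Here the replicates were close and the FK866 plus succinate libraries lay below the other 4. Il4ra, the shared receptor chain for IL-4 and IL-13, was covered over 3940 and 3618 bp in FK866 plus succinate, 4002 and 4245 bp in FK866, and 4163 and 4116 bp in Control.

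Il13, the type 2 effector cytokine, had a domain (4009 bp, chr11:53630953-53634961) covered over 2984 and 2654 bp in FK866 plus succinate, 3489 and 2970 bp in FK866, and 3906 and 3806 bp in Control. Both Control libraries lay above the other 4, and the FK866 plus succinate and FK866 libraries overlapped. Il10, a cytokine that restrains inflammation, was covered over 3621 and 3581 bp in FK866 plus succinate, 3697 and 3642 bp in FK866, and 3874 and 4081 bp in Control (4205 bp, chr1:131018605-131022809). Its groups did not overlap, and Control was the highest.

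Further domains lay at genes of transcription and chromatin factors, named here without a count or test. Mllt6 was covered over 5063 and 5273 bp in FK866 plus succinate, 5000 and 5058 bp in FK866, and 5191 and 4995 bp in Control. Its FK866 plus succinate libraries lay just above those of FK866, and Control overlapped with both. Brd2, a bromodomain reader of acetylated histones, shares its domain of 6099 bp with H2-DMa, a chaperone of peptide loading on MHC class II. Brd2/H2-DMa was covered over 5101 and 5153 bp in FK866 plus succinate, 5298 and 5679 bp in FK866, and 5737 and 5893 bp in Control, with no overlap between any groups. Others of this kind among the 20 widest were Zfp516, Zbtb25/Zbtb1 (Zbtb1 is needed for lymphoid development), the homeobox repressor Tgif1, and Aebp2, which encodes a cofactor of Polycomb repressive complex 2. Gfi1 was covered over 4262 and 4240 bp in FK866 plus succinate, 4269 and 4259 bp in FK866, and 4288 and 4276 bp in Control, a range that amounts to hardly any of its width.

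Some domain genes encode parts of the actin cytoskeleton: Actb and Actg1 encode the cytoplasmic actins, Pfn1 and Tmsb4x encode actin monomer binders, Fmnl1 encodes a formin and Marcks an actin-binding protein of the membrane. Marcks was covered over 4950 and 4864 bp in FK866 plus succinate, 4914 and 4897 bp in FK866, and 4975 and 4914 bp in Control. Fmnl1 was covered over 4356 and 4406 bp in FK866 plus succinate, 5050 and 4834 bp in FK866, and 4685 and 4803 bp in Control. Marcks was nearly fully covered in every library, whereas at Fmnl1 the FK866 plus succinate libraries were lowest. Cytip, which encodes an adaptor of lymphocyte adhesion, was covered over 5849 and 5002 bp in FK866 plus succinate, 5844 and 5837 bp in FK866, and 5879 and 5856 bp in Control, so that a single library, FK866 plus succinate 2, stood apart. This grouping by role was made after the genes were known and was not tested.

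Other genes of the 20 widest domains were Furin, a proprotein convertase, Ppp1r18, a regulatory subunit of protein phosphatase, Hnrnpl, a splicing factor, Cep85, a centrosomal protein, Trim8, a ubiquitin ligase, Arl5a, a small GTPase, and Irs2, an adaptor of insulin and cytokine receptors. Over these 20 domains the lowest covered length in a library was 3185 bp at Arl5a and the highest 5893 bp at Brd2/H2-DMa.

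**Figure D2:**
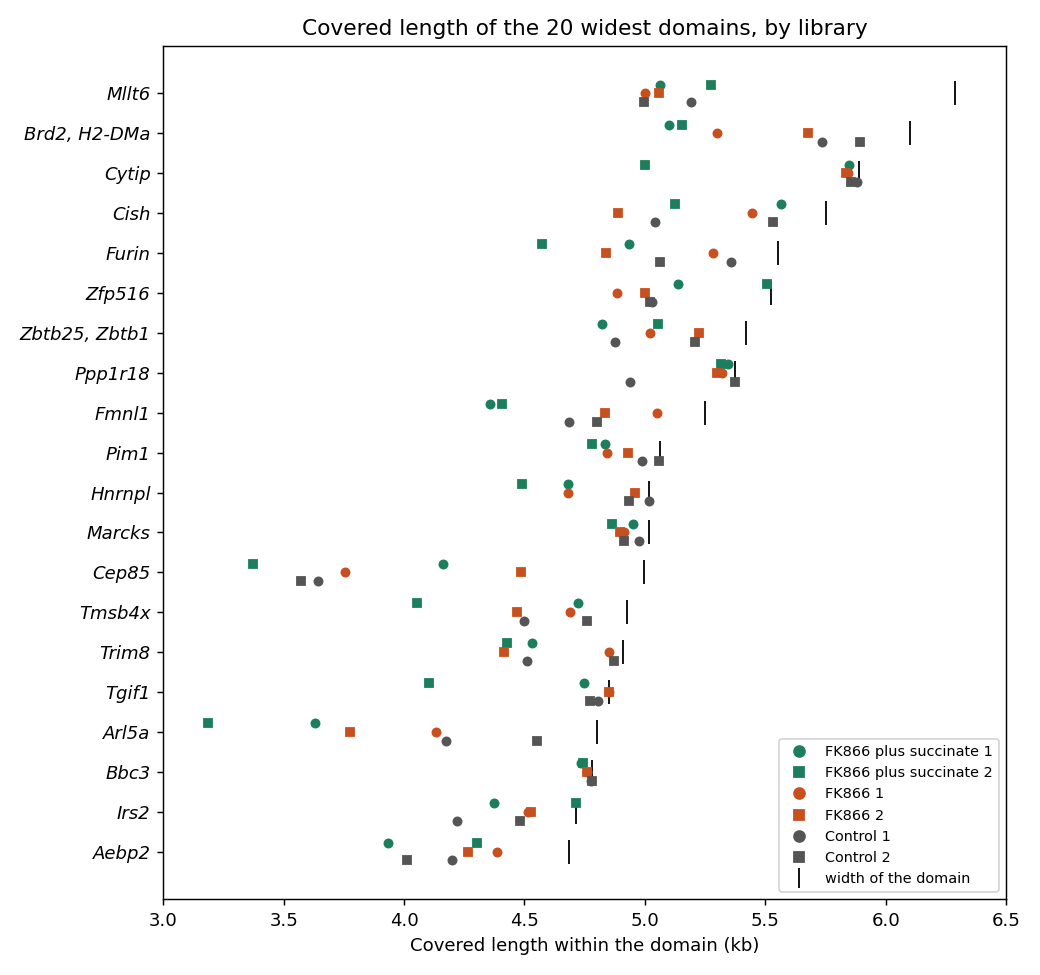
Covered length in kb (x axis, which starts at 3 kb) of the 20 widest domains (rows, widest at the top), with 1 point per library, coloured by treatment and shaped by replicate. Black ticks give the width of each domain. The points of most rows lie close together and the 3 groups overlap at some, as at Cish, while at Arl5a they spread from 3185 to 4551 bp.

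The domains were also set against gene lists. A domain touched the gene or its ends for 1 of 16 ILC2 transcription factors with a tested region (Gfi1), 2 of 14 ILC2 cytokines and effectors (Il13 and Il10), 2 of 20 ILC2 receptors (Il1rl1 and Il4ra) and 2 of 18 JAK, STAT and SOCS genes (Cish and Pim1). It did so for 3 of 30 NF-kB and AP-1 genes, which were Nfkbiz, an atypical IkB protein, and the AP-1 subunits Fosl2 and Junb. It did so for 2 of 14 survival and death genes (Bcl2l1, the anti-apoptotic BCL-XL, and Bbc3), 1 of 24 glycolysis and HIF genes (Myc) and 1 of 24 cell cycle genes (Cdk6). The master regulators Gata3 and Rora were not among them, and their widest regions measured 3128 and 3255 bp.

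No domain lay at the 21 NAD metabolism genes with a region or the 22 TCA cycle and succinate genes. The same held for the 29 listed writers and erasers of histone and DNA methylation and the 23 cytosolic ribosomal protein genes. It also held for the 16 replication-dependent histone genes matched and the 26 developmental regulator genes. A domain did lie over the histone genes H2bc23/H2ac23/H4c17, which the histone list does not hold. The other lists likewise hold only some genes of their kind. These counts stand beside the 0.743% of all genes with a region that overlapped a domain, and they are descriptions with no test. No tested region of any gene on these lists differed between groups at an adjusted p under 0.05.

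Summed over the 98 domains, the covered length was 385.668 and 378.023 kb in FK866 plus succinate, 406.512 and 403.83 kb in FK866, and 400.702 and 411.159 kb in Control. The FK866 plus succinate libraries were the lowest, and the FK866 and Control libraries overlapped. The mean was 381.8 ± 5.41 kb in FK866 plus succinate, 405.2 ± 1.9 kb in FK866 and 405.9 ± 7.39 kb in Control (SD, n = 2 each). FK866 plus succinate thus differed from FK866 by -23.3 kb (-5.76%) and from Control by -24.1 kb (-5.93%), and FK866 differed from Control by -0.76 kb (-0.187%). The two-sided exact permutation p was 0.333, 0.333 and 1 in that order, and 0.333 is the smallest that 2 libraries against 2 can give.

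Narrower regions lay in the same direction. Over all narrower tested regions, 70.2% and 69.3% of the width was covered in FK866 plus succinate, 76.6% and 74.2% in FK866, and 76.0% and 76.8% in Control. For the domains the same shares were 87.8% and 86.1% in FK866 plus succinate, 92.5% and 91.9% in FK866, and 91.2% and 93.6% in Control. The ratio of the domain share to the narrower share was 1.25 and 1.24 in FK866 plus succinate, 1.21 and 1.24 in FK866, and 1.2 and 1.22 in Control. The inferred background given above also averaged lowest in FK866 plus succinate, 1.49 ± 0.345 against 1.85 ± 0.364 in FK866 and 1.99 ± 0.210 in Control (SD, n = 2 each), and its part in these lengths was not tested. With each list cut to its 25187 strongest peaks, FK866 plus succinate differed from FK866 by -22.5 kb and from Control by -23.4 kb. That cut drops only the weakest peaks and does not equalize depth, so it is no test of depth. Leaving out Control 2 left a difference from Control of -15.7 kb. The coverage summed over 9 epithelial markers was 2.896 and 1.723 kb in FK866 plus succinate, 4.41 and 5.169 kb in FK866, and 6.597 and 6.323 kb in Control, with Muc2 and Krt20 at 0 throughout. The same sum over 11 ILC2 markers was 62.67 and 66.843 kb in FK866 plus succinate, 74.834 and 68.427 kb in FK866, and 76.173 and 75.444 kb in Control. FK866 plus succinate was the lowest group on these lists and on the B cell and the ILC1 and NK lists, and overlapped with others on the T cell, ILC3 and myeloid lists. The part of other cells in the domain lengths was not tested. Covered length does not tell fewer marked cells apart from less of the target per cell.

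Unbroken peaks showed the same order. A single peak of 4000 bp or wider covered 36 and 34 domains in FK866 plus succinate, 49 and 54 in FK866, and 45 and 59 in Control, with an exact permutation p of 0.333 for FK866 plus succinate against either other group. Gaps between peaks within domains summed to 15.511 and 23.322 kb in FK866 plus succinate, 11.542 and 15.159 kb in FK866, and 14.586 and 10.187 kb in Control. The span from the first to the last peak of each domain summed to 401.179 and 401.345 kb in FK866 plus succinate, 418.054 and 418.989 kb in FK866, and 415.288 and 421.346 kb in Control. The shorter coverage in FK866 plus succinate thus came to -17.3 kb in span and 6.07 kb more in gaps relative to FK866.

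The outermost covered bases were compared on both sides of the start. The median downstream edge lay 2892 and 2896 bp from the start in FK866 plus succinate, 2959 and 2974 bp in FK866, and 2982 and 2971 bp in Control. The median upstream edge lay at 1171 and 1167 bp in FK866 plus succinate, 1209 and 1169 bp in FK866, and 1159 and 1188 bp in Control. Against FK866, the downstream edge was nearer the start in 49 of 71 domains and the upstream edge in 36 of 71 in FK866 plus succinate. Against Control these counts were 53 and 38 of 71. Summed over the 71 domains, the upstream edge moved by -2.69 kb and the downstream edge by -5.49 kb against FK866. Against Control the sums were -1.76 kb upstream and -6.05 kb downstream. The domains themselves reach further downstream than upstream, and edges of narrower regions were not measured. The exact permutation p for the downstream edge was 0.333 in both comparisons with FK866 plus succinate, the smallest possible.

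**Figure D3:**
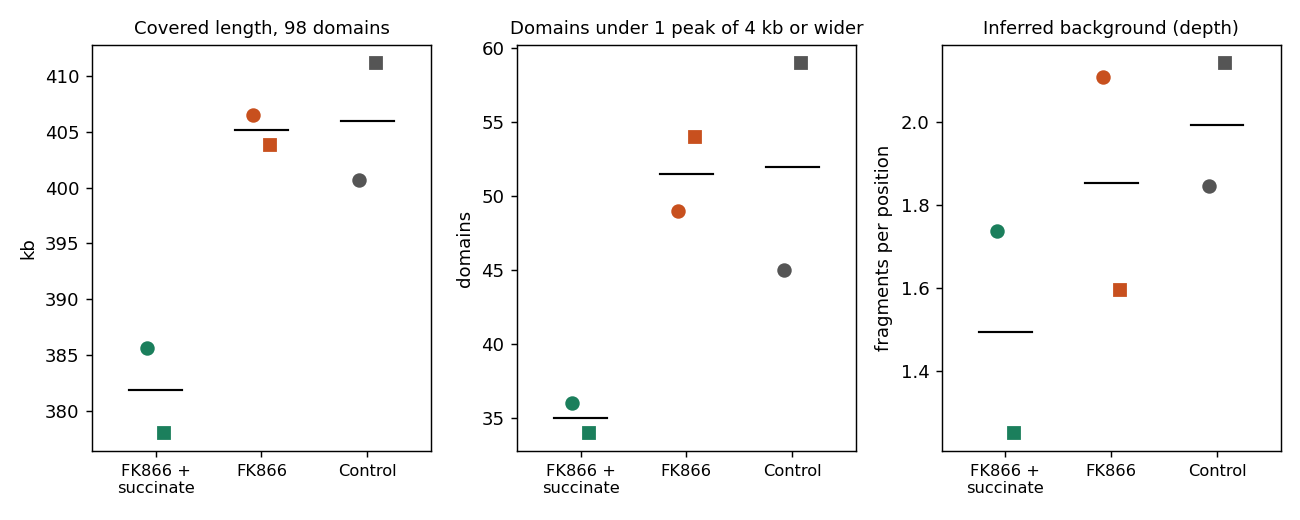
Per library, the covered length summed over the 98 domains (left, kb), the number of domains under a single peak of 4 kb or wider (middle) and the inferred background, a relative depth (right, fragments per position). Circles are replicate 1, squares replicate 2 and bars group means; the axes do not start at 0. The FK866 plus succinate libraries are lowest on the left, at 385.668 and 378.023 kb, and in the middle, while on the right they overlap with FK866.

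Single domains were compared as the percentage of the domain covered, in one limma fit over all 29342 tested regions. At an adjusted p under 0.05, 0 of 98 domains passed in FK866 against Control, 0 in FK866 plus succinate against FK866 and 0 in FK866 plus succinate against Control, and the share of all tested regions that passed was likewise 0% in each. The lowest adjusted p of any domain was 0.899, 0.365 and 0.338 in that order. At an unadjusted p under 0.05, limma gave 3 domains in FK866 against Control (background 5.37% of all tested regions), 12 in FK866 plus succinate against FK866 (background 11.4%) and 19 in FK866 plus succinate against Control (background 12%). These are 3.06%, 12.2% and 19.4% of the domains, so the first 2 shares are near or below the background and the last is above it. The 2 comparisons with FK866 plus succinate share those libraries, and the 2 with Control share the Control libraries.

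The median domain difference was -4.16 points for FK866 plus succinate against FK866, with 75 domains shorter and 23 longer, beside a median of -3.89 points over all tested regions. It was -4.47 points for FK866 plus succinate against Control, with 72 shorter and 26 longer, beside -4.29 points over all regions. For FK866 against Control it was -0.48 points, with 57 shorter and 40 longer, beside -0.24 points. The shorter domains were 76.5%, 73.5% and 58.2% in that order, beside 64.3%, 65.7% and 51.2% of all tested regions. Of the regions of 3000 bp up to the domain limit, 75.3%, 76.5% and 53.0% were shorter. Both medians for FK866 plus succinate shrank when the libraries were scaled to one distribution by quantile normalization, to -0.82 points against FK866 and -1.39 points against Control. Without FK866 plus succinate 2 the median against FK866 was -2.26 points.

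The 2 libraries of FK866 plus succinate both lay below both of FK866 in 44 domains (background 28.1%), and both above in 9 (background 9.23%). Against Control they lay below in 51 domains (background 29.3%) and above in 10 (background 8.87%). The FK866 libraries lay below both Control libraries in 22 domains (background 15.9%) and above in 16 (background 14.4%). Regions of 3000 bp up to the domain limit had shares nearer to the domains than all regions did, with 45.6% below in FK866 plus succinate against FK866 and 44.4% against Control, beside 44.9% and 52.0% of the domains.

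In FK866 plus succinate against FK866, Ccdc88c, which encodes the Dishevelled-binding protein Daple, had the lowest p of all domains (4381 bp, chr12:101025234-101029614). It was covered over 3223 and 2840 bp in FK866 plus succinate, 4346 and 4365 bp in FK866, and 4375 and 4229 bp in Control. The FK866 plus succinate libraries stood well below the other 4, which overlapped. Those 4 were each covered over 4000 bp or more, so the width rule may have admitted Ccdc88c through them. The difference was -30.2 ± 4.82 points (SE) against FK866, with an unadjusted p of 0.000211 and an adjusted p of 0.365 from limma. Against Control it was -29.0 ± 4.82 points with an adjusted p of 0.338. When regions with a peak in 1 library or more were tested, the adjusted p of Ccdc88c was 0.00859 against FK866 and 0.00779 against Control, so the call turns on that filter, and over all alternatives it ran up to 0.641 and 0.616.

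Akna, which encodes an AT-hook protein known both as a transcription factor and as a microtubule organizer, had its longest coverage in the FK866 libraries (4381 bp, chr4:63400668-63405048). It was covered over 3154 and 2933 bp in FK866 plus succinate, 4329 and 4199 bp in FK866, and 3043 and 3136 bp in Control. Both FK866 libraries lay above the other 4, and the FK866 plus succinate and Control libraries overlapped. Only the FK866 libraries were covered over 4000 bp or more, so the width rule may have admitted Akna through that group. Akna was 26.8 ± 9.28 points higher in FK866 than in Control (SE, adjusted p = 0.899 from limma) and differed by -27.9 ± 9.28 points in FK866 plus succinate against FK866 (adjusted p = 0.365). Neither difference passed the test, and the second shares the FK866 libraries with the first.

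Shisa5, which encodes a membrane protein of the endoplasmic reticulum induced by p53, had the largest positive difference in both comparisons of FK866 plus succinate among domains without overlap. It was covered over 4514 and 4402 bp in FK866 plus succinate, 3925 and 4218 bp in FK866, and 3852 and 3774 bp in Control. All 3 groups were separate, with Control lowest. The difference was 8.51 ± 4.0 points against FK866 (SE, adjusted p = 0.469 from limma) and 14.2 ± 4.0 points against Control (adjusted p = 0.338).

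For Il1rl1 the difference was -11.7 ± 2.67 points in FK866 plus succinate against FK866 (SE, unadjusted p = 0.0022, adjusted p = 0.365 from limma) and -9.79 ± 2.67 points against Control (adjusted p = 0.338). For Il13 it was -25.9 ± 8.29 points in FK866 plus succinate against Control (adjusted p = 0.339 from limma), -10.2 points against FK866 (adjusted p = 0.682), and -15.6 points in FK866 against Control (adjusted p = 0.960). Without FK866 2 the last was -9.15 points, and without FK866 1 the difference from FK866 was -3.77 points. The Il13 value was the most negative of the FK866 against Control comparison among domains without overlap, but the spread of its FK866 libraries, 3489 and 2970 bp, was nearly as large.

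Rara, the retinoic acid receptor alpha gene, was covered over 3864 and 4068 bp in FK866 plus succinate, 4438 and 4602 bp in FK866, and 4512 and 4493 bp in Control. Pik3r1, the regulatory subunit of PI3 kinase, was covered over 3835 and 3860 bp in FK866 plus succinate, 4183 and 4232 bp in FK866, and 4244 and 4122 bp in Control. At both genes the FK866 plus succinate libraries lay below the other 4. The differences of FK866 plus succinate against FK866 were -12.0 ± 2.87 points at Rara and -8.45 ± 2.23 points at Pik3r1 (SE, adjusted p = 0.365 each from limma). Rara and Pik3r1 were chosen after their values were seen.

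The remaining named domains of FK866 plus succinate against FK866 ran as follows. On the negative side were the chromosome 11 region without a gene (-34.9 points), the chromosome 15 region over Gm39556 (-32.7), the kinase gene Sik3 (-31.7) and Camk2b, a calmodulin-dependent kinase (-16.7). Sik3 was covered over 2079 and 1440 bp in FK866 plus succinate, 3772 and 2446 bp in FK866, and 2791 and 3004 bp in Control. Its difference from FK866 was -17.4 points without FK866 1 and -47.3 without FK866 2, and that of the chromosome 11 region was -11.1 and -60.0. That of Camk2b was -9.93 points without FK866 2 and -10.7 without Control 2. The chromosome 11 region was covered over 681 and 539 bp in FK866 plus succinate, 3092 and 1016 bp in FK866, and 592 and 3553 bp in Control. Both the FK866 and the Control libraries differed within their pair by more than the group means did. The chromosome 15 region was covered over 2509 and 2002 bp in FK866 plus succinate, 3723 and 3642 bp in FK866, and 3745 and 3697 bp in Control, so the other 4 libraries lay close together above both. On the positive side were Spry2, a brake on receptor tyrosine kinases (7.51 points), Zfp516 (6.85), Fem1c, a substrate receptor of a ubiquitin ligase (5.67), Ubtf, a factor of ribosomal RNA transcription (3.25), and Zmiz1, a transcriptional coactivator (3.02). Without FK866 plus succinate 2 the difference at Zfp516 was -0.26 points against FK866 and -3.34 against Control. The adjusted p of these 9 domains lay between 0.379 and 0.710 in limma.

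In FK866 plus succinate against Control the other named domains were the chromosome 15 region (-33.6 points), Sik3 (-26.7), Tbc1d10c/Ppp1ca (-22.6) and Camk2b (-21.8), and on the positive side Nrip1 (12.4), Gm38469/Arid2 (8.89), Coro2a (7.78), Rcc2 (6.0) and Zfp516 (5.40). Sik3 ran from -34.8 to -2.14 points over the alternatives, Coro2a was 14.1 points without FK866 plus succinate 2 and -7.42 without FK866 plus succinate 1, and Camk2b was -11.1 points without Control 2. Tbc1d10c encodes carabin, an inhibitor of calcineurin, and Ppp1ca a catalytic subunit of protein phosphatase 1. The Tbc1d10c/Ppp1ca domain was covered over 2954 and 3017 bp in FK866 plus succinate, 3159 and 3800 bp in FK866, and 3717 and 4119 bp in Control. Nrip1, a nuclear receptor corepressor, was covered over 3920 and 3987 bp in FK866 plus succinate, 3904 and 3820 bp in FK866, and 3203 and 3708 bp in Control. At Nrip1 both Control libraries lay lowest, and the spread between them was larger than the difference between the Control and FK866 means.

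In FK866 against Control the other named domains were Coro2a (15.8 points), Cep85 (10.2), Nrip1 (10.1), Plekha2 (5.94) and Shisa5 (5.69) on the positive side, and Arl5a (-8.48), the Neat1 region (-7.51), Il10 (-7.32), Icam4/Icam5 (-7.01) and Brd2/H2-DMa (-5.35) on the negative side. Coro2a was covered over 2765 and 1875 bp in FK866, against 1727 and 1604 bp in Control, and its difference was 6.31 points without FK866 1 and 26.6 without FK866 2. Nrip1 differed by 3.84 points without Control 1 and by 16.4 without Control 2. Icam4/Icam5, a pair of adhesion molecule genes, was covered over 4136 and 4108 bp in FK866, against 4423 and 4444 bp in Control, and had an unadjusted p of 0.0349. Cep85 was covered over 3755 and 4484 bp in FK866, against 3643 and 3573 bp in Control, and its difference was -4.89 points with all deposited peaks, 3.38 without FK866 2 and 17.5 without FK866 1. The lowest adjusted p of these 10 domains was 0.899 in limma.

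**Figure D4:**
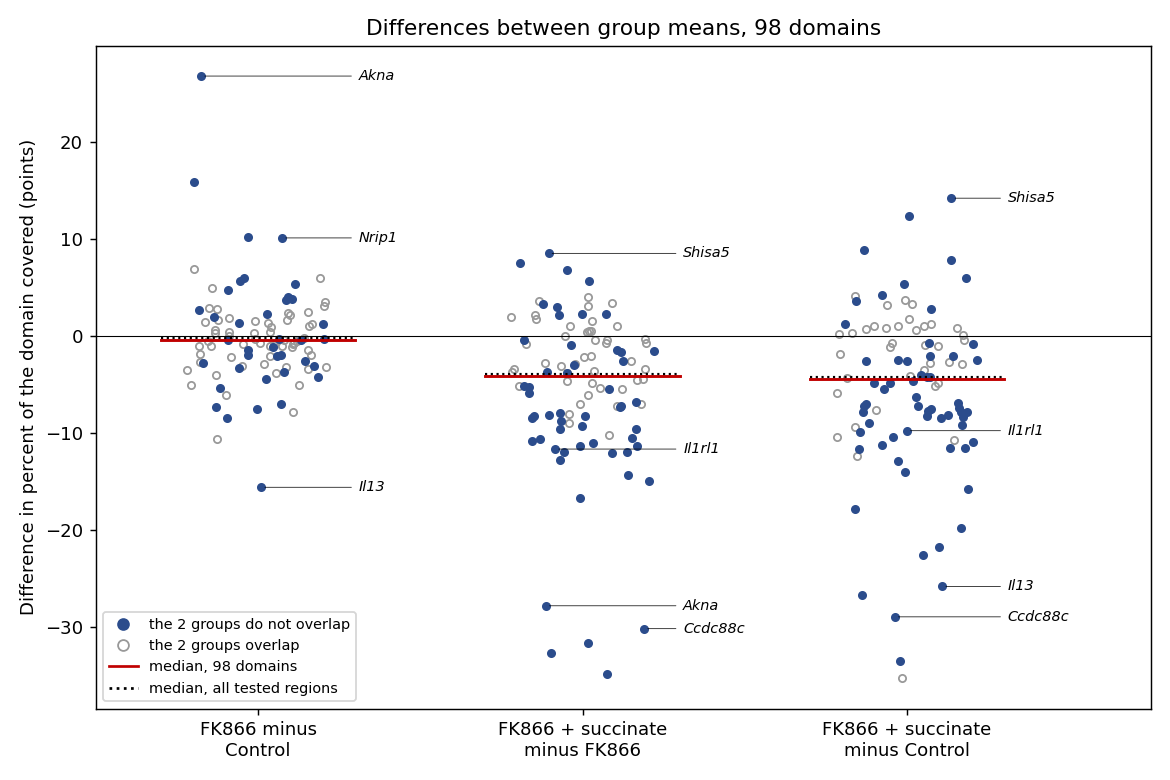
Difference between group means in the percentage of each domain covered (y axis, points) for the 3 comparisons (x axis), with 1 point per domain. Filled points are domains whose 2 groups do not overlap; the red line is the median of the 98 domains and the dotted line that of all tested regions. The median of the domains lies close to that of all regions in each comparison, at -4.16 beside -3.89 points for FK866 plus succinate against FK866, and no point passed an adjusted p of 0.05.

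The promoter windows were compared by the region that covers the gene start. RefSeq holds windows for 80 protein-coding genes with a start in a domain, 10110 with a start in a narrower tested region and 8135 with a start in no tested region. The median GC content was 63.7% in domain promoters, 62% in promoters of narrower regions and 47.7% in promoters outside regions. The median CpG observed over expected was 0.822 in domain promoters, 0.785 in narrower ones and 0.204 outside regions. Domain promoters were thus CpG-rich, much as the promoters of narrower regions were, and no test of that small gap was made.

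An observed over expected CpG below 0.4 was found in 10 domain promoters (12.5%), 8.93% of narrower-region promoters and 79.0% of those outside. The 10 genes were Tspan32, Il1rl1, Shisa5, Akna, Gm5544, Il13, Gpr55, Gpsm3, Srgn and Furin. They include the IL-33 receptor gene and the type 2 cytokine gene whose sequences are printed above, where capitals are sparse beside those of Mllt6. Shisa5, Akna, Il1rl1 and Il13 are also among the domains compared one by one above, and the link was seen after both were known and was not tested.

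**Figure D5:**
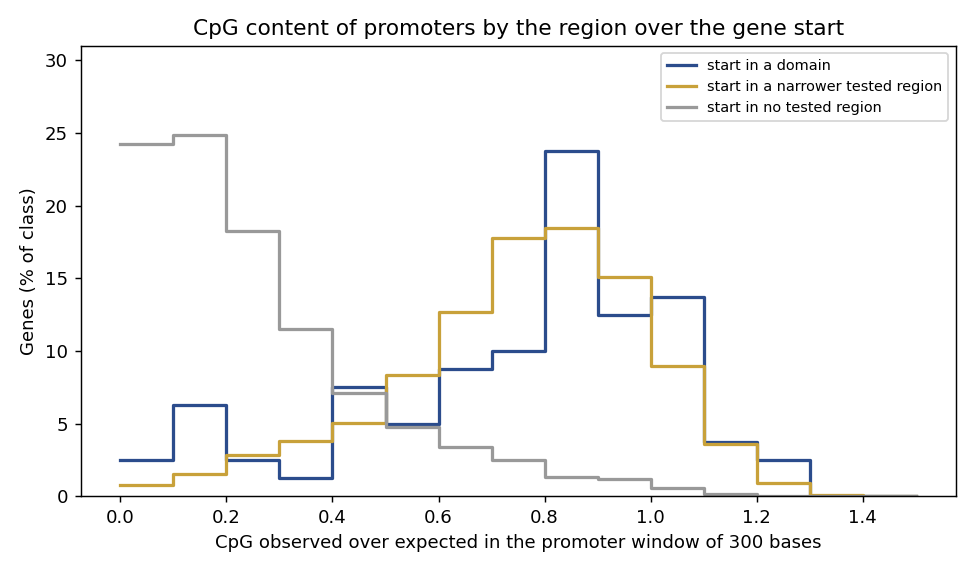
Distribution of the CpG observed over expected in the promoter window of 300 bases (x axis) as a percentage of the genes of each class (y axis), for genes with a start in a domain, in a narrower tested region or in no tested region. The domain class peaks between 0.8 and 0.9, near the narrower class, and both lie far to the right of the class without a region; a small group of domain genes lies below 0.4.

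Motifs were counted on both strands of the same windows. The GC box, GGGCGG, was present in 61.25% of domain promoters, 68.8% of narrower-region promoters and 46.2% of all 21263 windows. The ETS letters CCGGAAG were present in 7.5% of domain promoters, 19.0% of narrower-region promoters and 11.6% of all windows. The GATA letters AGATAA were present in 8.75%, 5.48% and 9.65% of these classes in the same order. The STAT letters TTCNNNGAA were found in 5 of 80 domain promoters (6.25%), which were Cish, Dbp, Gm5544, Gpr55 and Ppp1r18, against 6.48% of narrower-region promoters and 7.69% of all windows. Cish alone of these held 2 copies, those shown in capitals above. The remaining motifs, in domain and then narrower-region promoters, were the CCAAT box (36.25% and 38.5%), TATA box (8.75% and 6.12%), AP-1 (1.25% and 4.20%), NF-kB (2.5% and 2.36%) and CRE (0% and 3.43%). A match is a description of letters and not of a bound site, and a window of 300 bases says nothing of the rest of a domain.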

How the data were processed

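CUT&Tag was measured in 6 libraries of ILC2s, 2 per group, with groups and replicate numbers from the labels. Trimming used cutadapt 1.9 and alignment to mm10 used Bowtie2 2.5.0, per the submitters' processing notes. The sources used here name no peak caller, settings or antibody target. The deposited peak lists hold, per library, a score, a fold enrichment (a ratio to local background), a -log10 p-value and a -log10 q-value for each peak. These values depend on depth. Thresholds and ranks were applied within a list, and the fold values and ranks of the strongest peaks were then averaged over libraries. A region without a peak in some libraries was averaged over the others. No reads, coverage or input entered, so covered length measures extent and not height, and depth limits it without a counting interval.

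Peaks with an adjusted p under 0.05 on 21 chromosomes were merged (pandas 2.3.3, numpy 2.4.6, Python 3.11.15). The percentage covered was tested with limma 3.58.1 in R 4.3.3 (lmFit, eBayes with a trend, no scaling, all 6 libraries, Benjamini-Hochberg over 29342 regions at 0.05), and totals with exact permutation tests. The limma fit was tested on simulated data. Gene spans and promoter windows came from RefSeq, GRCm38.p6, with the coordinates of mm10. Depth was inferred from steps between the 12 commonest fold values. Members and lists were chosen with earlier results of these data known. Named are the 20 widest domains, up to 6 per direction and comparison with the largest difference without overlap, list members, domains at the width limit, and the 5 strongest and 5 least shared. A further rule, for domains with peaks in one group and none in another, named none. Alternatives changed the peak threshold, width limit, merging, number of peaks, libraries required, overlap, scale, normalization, replicate block, variance model and libraries. Peaks on other sequences, 43 to 55 in each list, were not used except in the ranks by -log10 p, which were taken over all deposited peaks.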

Additional observations from a re-analysis of the deposited data

How the results depend on the processing

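The number of domains was 754 at a width of 3000 bp, 12 at 5000 bp and 169 when peaks up to 500 bp apart were merged, each by construction, and between 86 and 95 without 1 library in turn. The median difference for FK866 plus succinate was -2.47 points against FK866 and -3.08 against Control in domains of 5000 bp or wider, and -0.82 and -1.39 under quantile normalization. Without 1 library in turn it ran from -4.51 to -2.26 points against FK866 and from -5.64 to -3.20 against Control, both nearest 0 without FK866 plus succinate 2. The same range was -1.14 to -0.106 points for FK866 against Control. The summed length ran from -24.7 to -18.4 kb, from -29.2 to -15.7 kb and from -6.23 to 3.22 kb in the same order, and the last turned positive without Control 2 (3.22 kb) or FK866 2 (0.53 kb). Testing regions with a peak in at least 1 library called 1 domain, Ccdc88c, in FK866 plus succinate against FK866 and 1 against Control. Every other alternative called 0 domains in all 3 comparisons. Among single domains, Cep85 in FK866 against Control turned to -4.89 points with all deposited peaks, Coro2a in FK866 plus succinate against Control to -7.42 without FK866 plus succinate 1 (14.1 without FK866 plus succinate 2), and Zfp516 to -0.26 against FK866 and -3.34 against Control without FK866 plus succinate 2 (10.2 and 8.72 without FK866 plus succinate 1). The cause was not tested. With the replicate number as a block 0 domains were called in each comparison; same-numbered libraries did not deviate together over all regions (correlations of -0.0044, 0.0011 and 0.0047), nor in every pair over the domains (-0.465 for FK866 with Control, -0.095 for FK866 plus succinate with Control and 0.242 for FK866 plus succinate with FK866), so the numbers were not taken as pairs. With 1 library left out, the lone library is assumed to vary like the other groups. The alternatives that kept only domains with a single peak of 4000 bp or only those with a gene start were chosen after seeing the data, and both left each median within the replicate spread of 1.23 points. Asking a peak to overlap by 200 bp changed nothing, since the smallest peak was 252 bp.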
